A study of Mus musculus with 16 samples.

Results

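Genes that encode adult fast and slow isoforms of skeletal muscle contractile proteins were followed in satellite cell-derived myoblasts of the mouse. They were selected by name, as every probe whose gene name in the scanner files was Myh1, Myh2, Myh4, Tnnc2, Tnni2, Tnnt3, Myh7, Myl2, Myl3 or Tnnc1. These are 10 of 34650 gene names on the array, measured by 11 probes, with 6 fast isoforms and 4 slow isoforms. All 10 passed the filter on low signal and were among the 20237 genes tested. Satellite cells are the resident stem cells of skeletal muscle, and the myoblasts they give rise to were cultured either on their native myofibers (myofiber-associated) or without them, on gelatin-coated dishes (dispersed). RNA was collected 48 and 72 hr after isolation from male C57Bl/6J mice aged 11 to 13 weeks, with 4 biological replicates in each of the 4 groups and 1 one-color Agilent array per replicate. A myofiber-associated replicate came from 2 mice and a dispersed replicate from 1 mouse, and myofiber-associated replicate 10+11 at 48 hr pooled 2 preparations. Myofiber-associated myoblasts were stripped from the fibers with trypsin and the fibers were discarded. The study asked how gene expression between 48 and 72 hr depends on the niche.

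Muscle contraction rests on myosin heavy chains, which form the motor, on myosin light chains that sit on the neck of the motor, and on the troponin complex, which makes the thin filament respond to calcium. Each is made in isoforms, and an adult fiber is called fast or slow by the myosin heavy chain it carries. Myh4, Myh1 and Myh2 encode the heavy chains of type 2B, 2X and 2A fibers, and Myh7 encodes the heavy chain of slow fibers and of the heart. Tnnc2, Tnni2 and Tnnt3 encode the calcium-binding, inhibitory and tropomyosin-binding subunits of fast troponin. Tnnc1 encodes the calcium-binding subunit of slow and cardiac troponin, and Myl2 and Myl3 encode the regulatory and essential light chains of slow fibers and of the ventricle. These isoforms mark mature fibers rather than proliferating myoblasts.

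The 3 fast heavy chain genes lie next to each other on mouse chromosome 11, and the stretches upstream of their starts are printed because the genes share sequence there and yet changed by different amounts below. The windows are the 250 bases before the annotated start, from RefSeq (GRCm38.p6, plus strand), at chr11:67170777-67171026 for Myh2, chr11:67199852-67200101 for Myh1 and chr11:67237562-67237811 for Myh4. The 20-base run in capitals, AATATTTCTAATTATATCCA, is the longest that all 3 windows share, and it starts at position -130 from the start of Myh2, -165 from that of Myh1 and -163 from that of Myh4. The shorter run of 10 capitals in Myh1 and Myh4 is a match to the MEF2 motif on the minus strand.
Myh2: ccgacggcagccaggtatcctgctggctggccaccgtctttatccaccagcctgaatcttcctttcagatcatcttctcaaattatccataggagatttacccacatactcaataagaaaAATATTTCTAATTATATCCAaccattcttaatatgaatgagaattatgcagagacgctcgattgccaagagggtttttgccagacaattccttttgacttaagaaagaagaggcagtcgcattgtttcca
Myh1: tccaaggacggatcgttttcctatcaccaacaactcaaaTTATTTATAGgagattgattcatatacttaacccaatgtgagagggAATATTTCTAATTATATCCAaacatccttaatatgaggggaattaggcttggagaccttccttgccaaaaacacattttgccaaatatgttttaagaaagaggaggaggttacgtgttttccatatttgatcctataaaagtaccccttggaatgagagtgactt
Myh4: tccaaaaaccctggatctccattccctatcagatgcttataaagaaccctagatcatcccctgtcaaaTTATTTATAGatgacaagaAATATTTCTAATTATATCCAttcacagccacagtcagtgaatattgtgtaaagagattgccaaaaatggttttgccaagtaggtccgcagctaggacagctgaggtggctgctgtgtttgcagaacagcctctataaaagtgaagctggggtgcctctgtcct

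The shared run was found in 3 of 32851 promoter windows of the same length, all from these 3 genes. A MEF2 motif on either strand was found in 1.69% of all windows and in 2 of the 10 windows that 8 of the members have in the table, those of Myh1 and Myh4. An E-box (CANNTG), the motif that myogenic basic helix-loop-helix factors bind, was found in 66.2% of all windows and in 8 of the 10 member windows. It was absent from the windows of Myh1 and Myh2. Such matches describe the letters only.

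The probes are 60 bases long and their positions are those of the array design on mm9. On chromosome 11 they lie at chr11:67010960-67011019 (Myh2), chr11:67038002-67038061 (Myh1) and chr11:67073834-67073893 (Myh4). The fast troponin probes lie at chr2:164602661-164602720 (Tnnc2), chr7:149630251-149630310 (Tnni2) and chr7:149698467-149698526 (Tnnt3). The slow probes lie at chr14:55589581-55589640 (Myh7), chr5:122556732-122556791 (Myl2), chr9:110672238-110672297 (Myl3) and chr14:32023360-32023776 (Tnnc1), and since the interval of the Tnnc1 probe covers 417 bases, that probe spans a splice junction. Between probes of different members the longest shared run was 10 bases, for Myh1 and Myh4, so the heavy chain probes did not share long stretches. Tnnt3 alone had 2 probes, and they overlap by the 27 bases in capitals below, so that they are not independent measures. The Tnnc1 probe is printed because Tnnc1 was the only member that rose.
Tnnt3, brighter probe: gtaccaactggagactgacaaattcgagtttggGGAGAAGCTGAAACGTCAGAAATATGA
Tnnt3, second probe: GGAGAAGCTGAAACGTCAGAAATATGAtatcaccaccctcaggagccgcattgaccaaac
Tnnc1: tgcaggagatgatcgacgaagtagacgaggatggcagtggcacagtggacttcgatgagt

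Values are normalized log2 signals, in which 1 unit is a 2-fold difference, and a member was called changed when its Benjamini-Hochberg adjusted p from limma, over all 20237 genes, was below 0.01. Signals of different probes cannot be set against each other, so each gene is compared only with itself. All 11 member probes were well above background on all 16 arrays and none was saturated. Between 54.1% and 63.5% of all probes were well above background on an array. All myofiber-associated arrays were on 1 slide and all dispersed arrays on the other, so a difference between the cultures cannot be told apart from a difference between the slides. The comparisons of 72 with 48 hr were made within a slide. On each slide the 48-hr and the 72-hr arrays occupied different columns, so time and slide column cannot be told apart either. In RNA from a mixed preparation, fewer cells of a type and less RNA per cell cannot be told apart.

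Genes of the labelled cell type were looked at first. All 8 myoblast genes (Pax7, Myf5, Myod1, Cdh15, Des, Itga7, Sdc3 and Sdc4) were well above background on every array, with a mean log2 signal between 11.95 and 12.88. Genes of other cell types were detected too. All 6 fibroblast genes were well above background on every array, with a mean between 11.15 and 12.72. The mean of 6 endothelial genes was 11.72 to 11.98 on the dispersed 48-hr arrays. The myoblast genes thus do not show that the preparations held myoblasts alone. A list of 18 genes of the mature fiber, such as Ckm and Pygm, was well above background as well, with 16 to 18 genes detected on the dispersed 72-hr arrays and 18 on every other array. The mean log2 signal of these 18 genes on dispersed arrays ranged from 8.47 to 9.38 (48 hr) and from 7.92 to 8.31 (72 hr), and on myofiber-associated arrays from 14.30 to 15.49 (48 hr) and from 11.89 to 14.37 (72 hr). Their summed signal on the linear scale was 75909 to 86786 and 79725 to 101126 in dispersed myoblasts at 48 and 72 hr, and 710721 to 1425990 and 228263 to 703678 in myofiber-associated myoblasts. The dispersed sums are dominated by Eno3, by far the brightest of the 18 there, with means of 16.12 at 48 hr and 16.33 at 72 hr. None of the 18 was near 0 in the myofiber-associated preparations, for which the submitters' protocol states that quality control found no RNA of the fiber. The members are fiber genes too, and the part of fiber RNA in the results below was not tested.

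In dispersed myoblasts 4 fast isoforms fell between 48 and 72 hr and 1 slow isoform rose. The fast heavy chains Myh4 and Myh1 and the fast troponin subunits Tnnc2 and Tnni2 were lower at 72 hr, and the slow troponin subunit Tnnc1 was higher. These 4 of 10 members compare with 6.35% of all genes called lower, and the 1 of 10 with 7.38% of all genes called higher. The median log2 change was -1.77 over the 6 fast isoforms and -0.78 over the 4 slow isoforms, against 0.02 over all genes tested.

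Myh4 had the largest of these changes. Its signal on the 4 dispersed arrays was 13.45, 13.05, 11.83 and 11.93 at 48 hr and 11.00, 10.75, 9.78 and 9.68 at 72 hr. All 72-hr values were below all 48-hr values, and in both groups the first 2 arrays, which lay in row 1 of the slide, were the higher ones. Myh4 fell by 2.26 log2 units (SE 0.46, n = 4 per group, limma adjusted p = 0.00887), and by 2.37 within row 1 and 2.15 within row 2. This call was lost in each of the 8 fits that left out 1 array (adjusted p 0.0108 to 0.0282) and when genes of low signal were kept (adjusted p = 0.0237).

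Myh1, the 2X heavy chain, was 8.57, 8.25, 8.35 and 7.69 at 48 hr and 7.14, 6.98, 7.09 and 6.86 at 72 hr. The groups did not overlap and the 72-hr arrays lay close together. Myh1 fell by 1.2 (SE 0.17, limma adjusted p = 0.00202). The call held without any 1 array and was lost in 1 limma fit of all 16 arrays (adjusted p = 0.163).

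Of the fast troponin subunits, Tnnc2 was 14.33, 13.99, 13.28 and 12.91 at 48 hr and 12.17, 12.02, 11.32 and 10.99 at 72 hr. Tnni2 was 14.08, 13.57, 13.11 and 12.67 at 48 hr and 12.17, 11.96, 11.59 and 11.59 at 72 hr. For both genes the 2 times did not overlap, and the arrays of row 1 were the higher ones at each time. Tnnc2 fell by 2.0 (SE 0.37, limma adjusted p = 0.00621) and Tnni2 by 1.53 (SE 0.29, limma adjusted p = 0.00701). The Tnnc2 call was lost without replicate 1, 2 or 3 at 48 hr or replicate 6, 7 or 8 at 72 hr (adjusted p 0.0124 to 0.0213). The Tnni2 call was lost without replicate 2 or 3 at 48 hr or any 1 replicate at 72 hr (adjusted p 0.0126 to 0.0238). Both were lost when genes of low signal were kept (adjusted p = 0.0176 and 0.0193), and Tnni2 in 1 fit of all 16 arrays (adjusted p = 0.0303).

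Tnnt3, which completes fast troponin, did not pass. It was 12.65, 12.03, 11.47 and 11.13 at 48 hr and 10.94, 10.90, 10.85 and 11.00 at 72 hr, so that the 72-hr arrays were nearly alike while the 48-hr arrays were spread out. Its log2 change was -0.90 (SE 0.29, limma adjusted p = 0.0554), and that of the second, overlapping probe was -0.34 (SE 0.26, limma adjusted p = 0.386). Within the slide its log2 change was -1.42 in row 1 and -0.37 in row 2.

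Tnnc1 went the other way from its fast counterpart Tnnc2. It was 6.12, 5.70, 5.72 and 5.58 at 48 hr and 6.69, 6.96, 6.86 and 6.81 at 72 hr, and every 72-hr array was above every 48-hr array. Tnnc1 rose by 1.05 (SE 0.12, limma adjusted p = 0.000583). The call held without any 1 array and was lost in 1 fit of all 16 arrays (adjusted p = 0.0287), and with the normexp background correction the change was 0.60 and passed. The other subunits of slow troponin, which are not members, rose as well. Tnni1 rose by 2.27 (SE 0.21, limma adjusted p = 0.000253) and Tnnt1 by 2.34 (SE 0.17, limma adjusted p = 9.45e-05).

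The remaining 4 members did not pass in dispersed myoblasts. Myh2, the 2A heavy chain, changed by -2.08 on the log2 scale (SE 0.46, adjusted p = 0.0124 by limma) and Myl2 by -1.63 (SE 0.35, limma adjusted p = 0.0116), both just above the threshold. With the normexp background correction Myh2 passed at a smaller change (-1.28, adjusted p = 0.00742). Without replicate 7 at 72 hr Myh2 passed (-2.41, adjusted p = 0.00827), and Myl2 passed without that array (-1.86, adjusted p = 0.00999) or without replicate 2 at 48 hr (-1.87, adjusted p = 0.00944). Myl2 passed too in 1 fit of all 16 arrays (adjusted p = 0.00567) and with the slide row as a block (adjusted p = 0.00816), at -1.32 in row 1 and -1.94 in row 2. The light chain Myl3 changed by -1.46 (SE 0.50, limma adjusted p = 0.067) and overlapped between the times. Myh7, the slow heavy chain, changed by -0.09 (SE 0.15, limma adjusted p = 0.697) and lay between 5.95 and 6.51 on all 8 dispersed arrays.

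**Figure D1:**
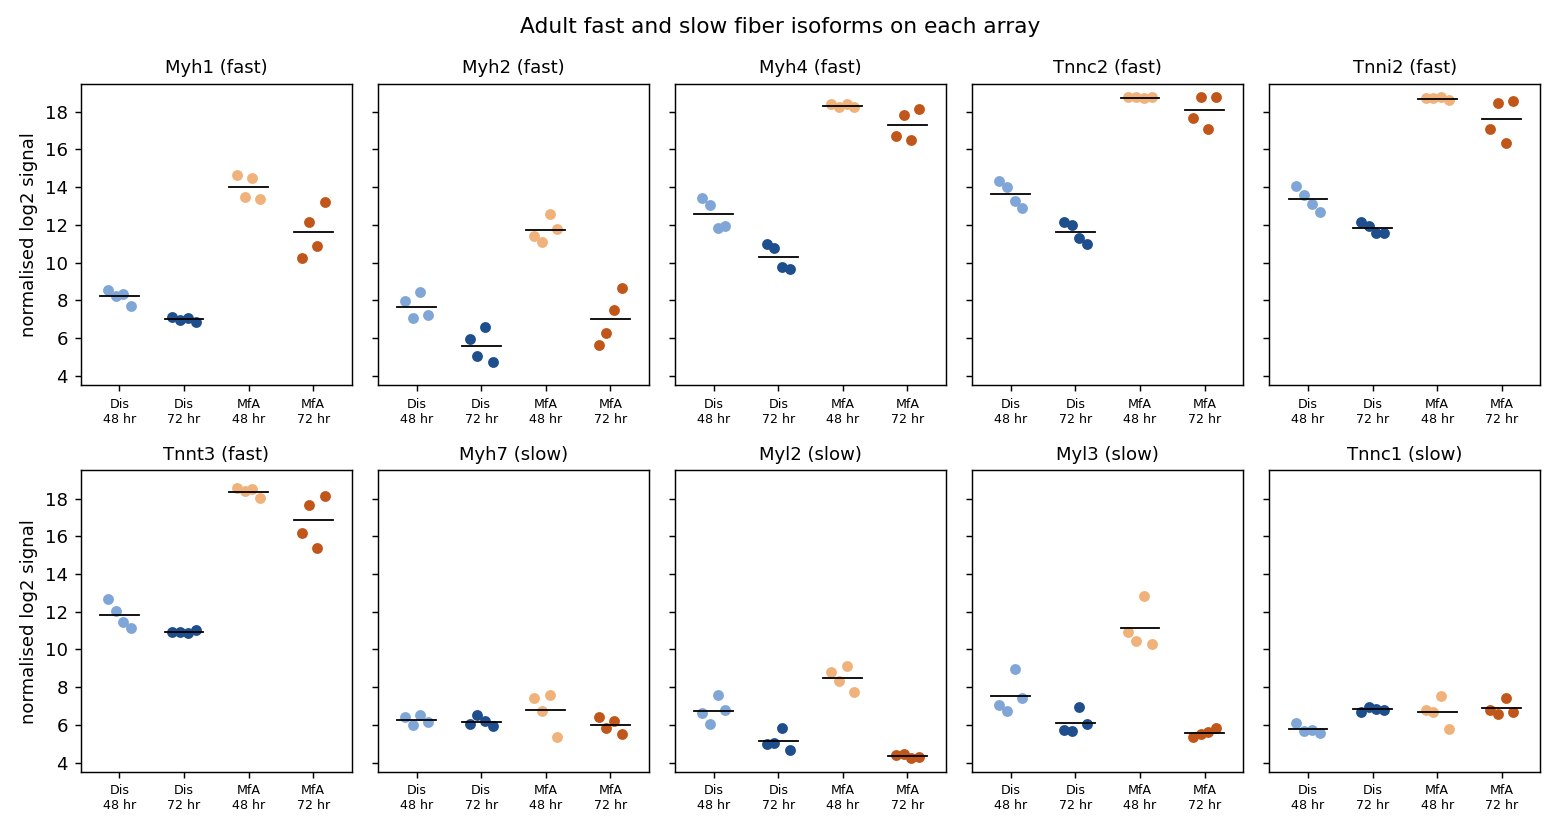
Normalized log2 signal (vertical axis) of each of the 10 members in the 4 groups (Dis, dispersed; MfA, myofiber-associated), with a point for each array and a black line for the group mean. Myh2, Myl2 and Myl3 drop from 48 to 72 hr on the myofiber-associated arrays, while the fast troponin genes and Myh4 stay above 15 on every myofiber-associated array.

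In myofiber-associated myoblasts a different set of members passed the test. The 2A heavy chain Myh2 and the slow light chains Myl2 and Myl3 were much lower at 72 than at 48 hr, while the other heavy chains and all troponin subunits did not pass. These 3 of 10 members compare with 1.77% of all genes called lower, and no member was called higher, against 3.74% of all genes. At an unadjusted limma p below 0.05 there was none higher either, and 7 members were lower, among them Myh1, Myh4 and Tnni2. In dispersed myoblasts 8 were lower and 1 was higher at that p. The median log2 change was -1.31 over the fast isoforms and -2.46 over the slow isoforms, against 0.06 over all genes tested.

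Myl3 had the lowest log2 change of all 20237 genes in this comparison. Its signal was 10.92, 10.43, 12.83 and 10.27 at 48 hr, and 5.38, 5.51, 5.62 and 5.84 at 72 hr. The 72-hr arrays were alike and lay more than 4 log2 units below the lowest 48-hr array. Myl3 fell by 5.53 (SE 0.51, limma adjusted p = 0.000976), a 46.1-fold difference. Myl2 was 8.79, 8.31, 9.11 and 7.72 at 48 hr and 4.38, 4.43, 4.24 and 4.32 at 72 hr. It fell by 4.14 (SE 0.27, limma adjusted p = 0.000441), a 17.6-fold difference. At 72 hr Myl2 was close to the dimmest signals that count as detected, since 0.589% to 11.4% of the probes well above background on the same array were dimmer. Both calls held without any 1 array. With the normexp background correction the log2 changes were smaller, at -4.44 for Myl3 and -2.52 for Myl2, and both passed.

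Myh2 was 11.39, 11.07, 12.56 and 11.81 at 48 hr and 5.65, 6.28, 7.48 and 8.68 at 72 hr. The 2 times did not overlap, and the 72-hr arrays were more widely spread than the 48-hr arrays. Myh2 fell by 4.68 (SE 0.63, limma adjusted p = 0.00337), a 25.7-fold difference. The call was lost without replicate 7 or 9 at 48 hr or replicate 2 at 72 hr (adjusted p 0.0103 to 0.0134), where the log2 change stayed between -4.79 and -4.40, and when genes of low signal were kept (adjusted p = 0.0112).

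Its neighbors on chromosome 11, Myh1 and Myh4, did not pass. Myh1 was 14.66, 13.47, 14.51 and 13.36 at 48 hr and 10.25, 12.14, 10.88 and 13.24 at 72 hr. Myh4 was 18.39, 18.26, 18.41 and 18.23 at 48 hr and 16.74, 17.84, 16.51 and 18.12 at 72 hr. For both genes replicates 1 and 3 at 72 hr, which lay in the first column of the slide, were lower than replicates 2 and 4, which lay in the second. The log2 change was -2.37 for Myh1 (SE 0.64, limma adjusted p = 0.0334) and -1.02 for Myh4 (SE 0.35, limma adjusted p = 0.0642). Without replicate 4 at 72 hr Myh1 passed (-2.91, adjusted p = 0.0098), as it did in 1 fit of all 16 arrays (adjusted p = 0.0021).

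The fast troponin genes showed the same split among the 72-hr arrays. Tnnc2 was 18.77, 18.77, 18.72 and 18.77 at 48 hr and 17.68, 18.77, 17.10 and 18.77 at 72 hr. The value 18.77 is set by rank and lies just below a ceiling of 18.87, because quantile normalization gives every array the same set of values. Tnnc2 was among the 3 brightest probes on all 4 arrays at 48 hr and on replicates 2 and 4 at 72 hr. Scaled to the 75th percentile of each array instead, which sets no such ceiling, Tnnc2 was 9.68, 9.72, 9.49 and 9.43 at 48 hr and 8.16, 9.26, 7.65 and 9.39 at 72 hr, with the same 2 arrays low. Tnni2 was 18.72, 18.72, 18.77 and 18.60 at 48 hr and 17.11, 18.45, 16.34 and 18.59 at 72 hr. The log2 changes were -0.68 for Tnnc2 (limma adjusted p = 0.186), -1.08 for Tnni2 (limma adjusted p = 0.117) and -1.53 for Tnnt3 (limma adjusted p = 0.0745). Without replicate 3 at 72 hr those of Tnnc2 and Tnni2 were -0.35 and -0.65.

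The slow members Tnnc1 and Myh7 were measured at 5.76 to 7.51 and 5.35 to 7.57 in myofiber-associated myoblasts. Their times overlapped. Tnnc1 changed by 0.17 (SE 0.35, limma adjusted p = 0.732) and Myh7 by -0.78 (SE 0.46, limma adjusted p = 0.232). In both genes the pooled replicate 10+11 was the lowest 48-hr array, and without it the change of Tnnc1 was -0.14 (adjusted p = 0.711) and that of Myh7 -1.26 (adjusted p = 0.0138). In the authors' table, tested against 0, Myh7 passed (-0.93, adjusted p = 0.00715).

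**Figure D2:**
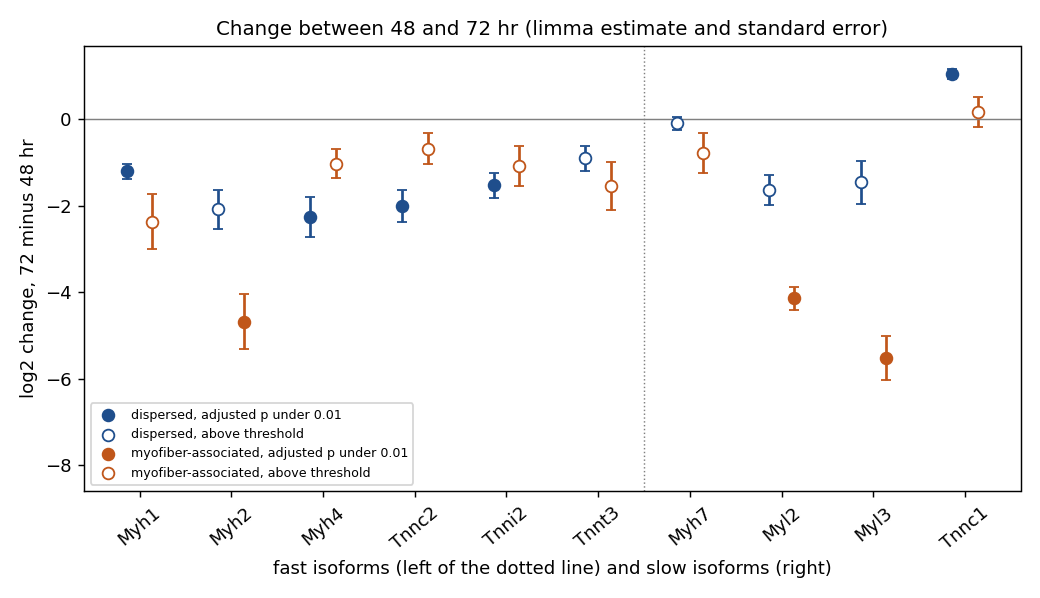
Log2 change from 48 to 72 hr (vertical axis) of each member in dispersed (blue) and myofiber-associated (orange) myoblasts, as the limma estimate with its standard error, filled where the adjusted p was below 0.01. In dispersed myoblasts the filled points are Myh1, Myh4, Tnnc2, Tnni2 and Tnnc1, and in myofiber-associated myoblasts Myh2, Myl2 and Myl3.

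The 72-hr/48-hr change was then compared between the cultures by the comparative ratio (CR), which on the log2 scale is the change in dispersed minus the change in myofiber-associated myoblasts. CR was above 0 and passed for Myl3 and Myl2, the 2 slow light chains, and for no fast member (at an unadjusted limma p below 0.05, Myh2 lay above 0 and Tnnc2 below). These 2 of 10 compare with 1.1% of all genes called above 0. Myl3 had a log2 CR of 4.06 (SE 0.77, limma adjusted p = 0.0053) and Myl2 one of 2.51 (SE 0.47, limma adjusted p = 0.00508), or 1.63 with the normexp background correction, which also passed. Both genes had negative changes in both cultures, so that these values describe a smaller drop in dispersed myoblasts and not a rise. Dispersed arrays started lower at 48 hr, with means of 7.55 for Myl3 and 6.76 for Myl2 against 11.11 and 8.48. How close the 2 genes came to the dimmest detected signals differed. At 72 hr 4.99% to 19.7% of the probes well above background were dimmer than Myl2 on dispersed arrays, and 21.0% to 33.0% were dimmer than Myl3. The Myl3 mean at 72 hr was 6.09 on dispersed and 5.59 on myofiber-associated arrays. The part of the starting level in these CR values was not tested. Myh2 had a log2 CR of 2.60 (SE 0.84, limma adjusted p = 0.0492) and passed without myofiber-associated replicate 4 at 72 hr (3.15, adjusted p = 0.00904) or with the normexp background correction (2.82, adjusted p = 0.00895). The Myl2 call held in 6 and the Myl3 call in 7 of the 16 fits that left out 1 array (adjusted p at most 0.0134 and 0.0139), and among the arrays whose loss ended both calls were dispersed replicates 1, 2 and 4 at 48 hr and 5, 6 and 7 at 72 hr, and myofiber-associated replicate 7 at 48 hr and 1 and 3 at 72 hr. The loss of myofiber-associated replicate 9 at 48 hr ended the Myl2 call alone (2.30, adjusted p = 0.0109). Both calls were lost when genes of low signal were kept (adjusted p = 0.0111 for Myl2 and 0.0118 for Myl3). The other 7 members had log2 CR values from -1.32 (Tnnc2) to 1.18 (Myh1) and did not pass.

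Members were also compared between the cultures at a given time, and these comparisons carry the slide. At 48 hr 8 of 10 members were higher in myofiber-associated myoblasts, all but Tnnc1 and Myh7, against 16.1% of all genes called higher and 27.1% called lower. The fast members were 4.04 (Myh2) to 6.55 (Tnnt3) log2 units higher, which is 16.4-fold to 93.8-fold, and the slow light chains were 3.56 (Myl3, SE 0.66, limma adjusted p = 0.00205) and 1.72 (Myl2, SE 0.38, limma adjusted p = 0.00484) higher. The Myl2 call was lost without dispersed replicate 1, 2 or 4 or myofiber-associated replicate 7, 8 or 9 (adjusted p 0.0113 to 0.0166) and when genes of low signal were kept (adjusted p = 0.0131). Tnnc1 differed by 0.91 (limma adjusted p = 0.0394) and Myh7 by 0.50 (limma adjusted p = 0.352), and without the pooled replicate 10+11 both passed, at 1.22 (adjusted p = 0.00158) and 0.98 (adjusted p = 0.00434). All 18 fiber genes were called higher in the same comparison, with a median difference of 6.36 against -0.12 over all genes tested.

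At 72 hr 5 of 10 members were higher in myofiber-associated myoblasts, against 11.6% of all genes called higher and 15.6% called lower. These were the 3 fast troponin genes, Myh4 and Myh1. Myh4 differed by 7.0 (SE 0.45, limma adjusted p = 2.66e-05), or 128-fold, Tnnc2 by 6.45 (SE 0.43, limma adjusted p = 3.13e-05), Tnnt3 by 5.92, Tnni2 by 5.79 and Myh1 by 4.61. The fast heavy chain Myh2 was 4.74 to 6.57 in dispersed and 5.65 to 8.68 in myofiber-associated myoblasts and did not pass (1.44, SE 0.68, limma adjusted p = 0.117). None of the 4 slow members passed in limma, and Myl2 alone had an unadjusted p below 0.05. Myl3 differed by -0.50 (limma adjusted p = 0.165), Myl2 by -0.79 (limma adjusted p = 0.0192), Myh7 by -0.19 (limma adjusted p = 0.483) and Tnnc1 by 0.04 (limma adjusted p = 0.874). Every myofiber-associated Myl2 value at 72 hr was below every dispersed one, and without dispersed replicate 7 Myl2 passed as lower (-0.56, adjusted p = 0.00778). All 18 fiber genes were called higher at 72 hr too, with a median difference of 4.90.

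The order of the 4 groups thus differed between members. For Myh4, Tnnc2, Tnni2, Tnnt3 and Myh1 the mean was highest in myofiber-associated myoblasts at 48 hr, then at 72 hr, then in dispersed myoblasts at 48 hr and lowest at 72 hr (the difference between the first 2 did not pass for any of these genes, nor did that between the last 2 for Tnnt3). For Myh2 the order was myofiber-associated at 48 hr (mean 11.71), dispersed at 48 hr (7.67), myofiber-associated at 72 hr (7.02) and dispersed at 72 hr (5.59), with overlap between the arrays of each neighboring pair of the last 3 groups. The middle pair, dispersed at 48 hr and myofiber-associated at 72 hr, was not tested. For Myl2 and Myl3 the lowest of the 4 means was in myofiber-associated myoblasts at 72 hr, at 4.34 and 5.59. For Tnnc1 the lowest was in dispersed myoblasts at 48 hr (5.78) and the other groups had means of 6.69 to 6.87. Myh7 means lay between 5.99 and 6.77 and no neighboring pair in their order passed the test.

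Fast and slow isoforms were set against each other within an array, where a change in the difference can be read although its level cannot. The log2 difference Tnnc2 minus Tnnc1 fell by 3.05 in dispersed myoblasts, from 7.85 ± 0.47 (SD, n = 4) at 48 hr to 4.80 ± 0.58 at 72 hr (two-sided exact permutation test p = 0.0286, adjusted over 4 tests 0.0381). On the myofiber-associated arrays it was 12.06 ± 0.74 at 48 hr and 11.21 ± 1.19 at 72 hr, a change of -0.85 that did not pass (two-sided exact permutation test p = 0.314, adjusted 0.314) and ranged from -1.19 to -0.34 with 1 array left out. There Tnnc2 lay just below the ceiling of quantile normalization on every 48-hr array and on replicates 2 and 4 at 72 hr, which limits this change. The difference Myh2 minus Myh7 fell in both cultures. It went from 1.41 ± 0.41 to -0.58 ± 0.87 in dispersed myoblasts, a change of -1.99, and from 4.94 ± 1.09 to 1.04 ± 1.64 in myofiber-associated myoblasts, a change of -3.90 (two-sided exact permutation test p = 0.0286 and adjusted 0.0381 in each). With 4 arrays against 4, 0.0286 is the smallest p this test can give. Whether the changes in these differences differ between the cultures was not tested. Myh2 was the only fast heavy chain set against Myh7, a pair chosen with earlier results known. In myofiber-associated myoblasts the log2 change was -4.68 for Myh2, -2.37 for Myh1, -1.02 for Myh4 and -0.78 for Myh7. The result therefore covers Myh2 and not the fast heavy chains as a set.

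**Figure D3:**
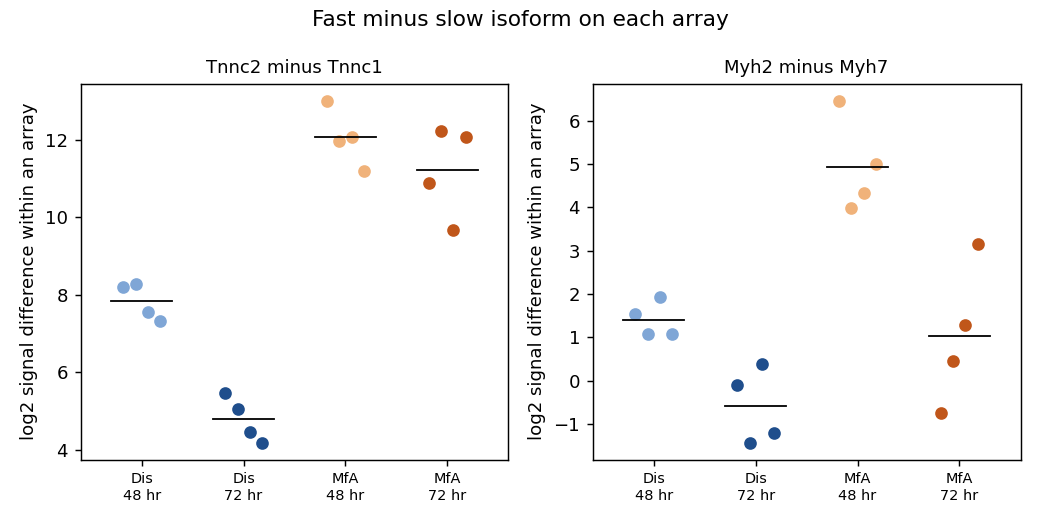
Difference in log2 signal (vertical axis) between a fast and a slow isoform on each array, for Tnnc2 minus Tnnc1 (left) and Myh2 minus Myh7 (right) in the 4 groups, with black lines for the group means. The 72-hr arrays are below all 48-hr arrays in dispersed myoblasts on both sides, and in myofiber-associated myoblasts on the right side alone.

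As a description over the whole list, the mean of the 6 fast isoforms minus the mean of the 4 slow isoforms ranged from 3.87 to 5.28 on the dispersed arrays of 48 hr and from 3.08 to 4.04 on those of 72 hr. On the myofiber-associated arrays the ranges were 7.66 to 9.19 and 8.08 to 10.32. The values thus lay lower at 72 hr in dispersed myoblasts, with an overlap, and not in myofiber-associated myoblasts. There the list mean of the fast isoforms at 72 hr was 13.93 and 13.95 on replicates 1 and 3 and 15.19 and 15.92 on replicates 2 and 4, and the mean of the 18 fiber genes was 12.30 and 11.89 on replicates 1 and 3 and 13.98 and 14.37 on replicates 2 and 4. The slow mean did not follow this split, at 5.74, 5.58, 5.87 and 5.59 on replicates 1 to 4. On these arrays Myl2 lay at 4.24 to 4.43, close to the dimmest detected signals, and Myl3 at 5.38 to 5.84. Such dim genes could show little of a split. The other slow members were higher on replicates 1 and 3 than on 2 and 4. Tnnc1 was 6.79, 6.55, 7.44 and 6.70 on replicates 1 to 4, and Myh7 was 6.41, 5.82, 6.20 and 5.52. The slow mean combines these genes and decides nothing about the split, whose cause was not tested.

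**Figure D4:**
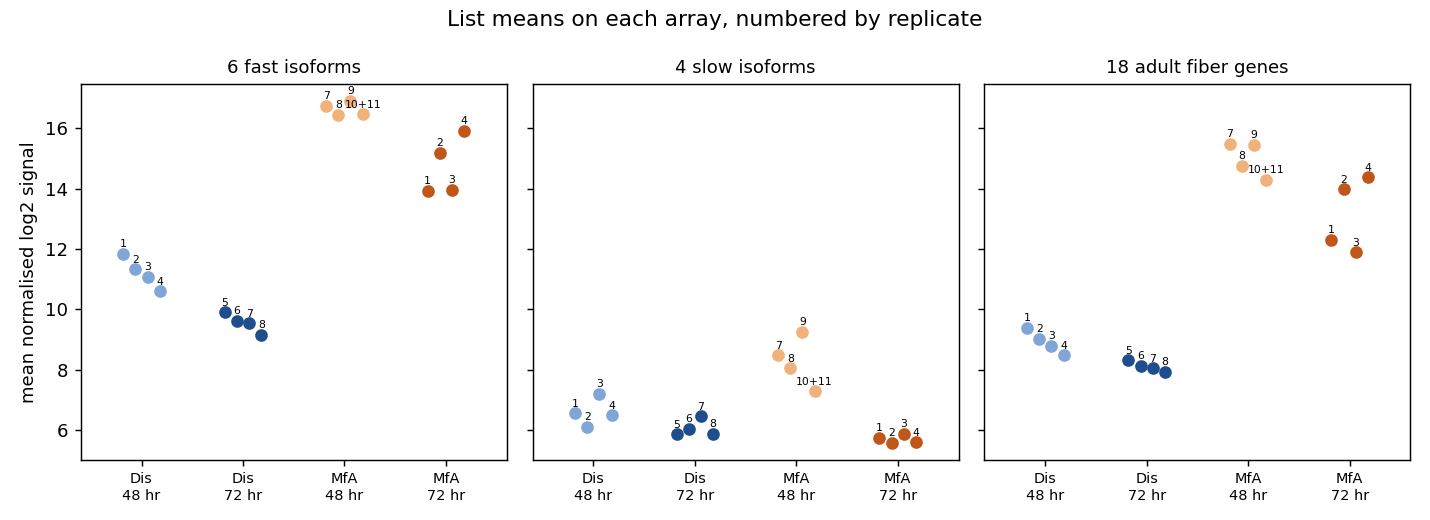
Mean log2 signal (vertical axis) over the 6 fast isoforms, the 4 slow isoforms and 18 genes of the mature fiber on each array, labelled with the replicate number, in the 4 groups. Levels of different lists are not comparable, and the change from group to group is what can be read. Replicates 1 and 3 of the myofiber-associated 72-hr group are low in the fast isoforms and the fiber genes and not in the slow isoforms. Of the slow isoforms in that group, Myl2 lies close to the dimmest detected signals, while Tnnc1 and Myh7 were higher on replicates 1 and 3.

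Since the fiber genes moved with the members, each member was also measured against the mean of the 18 fiber genes on the same array, a comparison chosen after the values had been seen. In myofiber-associated myoblasts that mean had a change of -1.87, and in dispersed myoblasts of -0.81. Relative to it, Myl3, Myh2 and Myl2 changed by -3.66, -2.82 and -2.27 in myofiber-associated myoblasts, with no overlap between the times. Myh4, Tnni2 and Tnnc2 changed by 0.85, 0.79 and 1.19 in the same samples, in the opposite direction, and Tnnc1 by 2.04. The log2 changes of these genes themselves were -1.02, -1.08, -0.68 and 0.17, so that the fall of the subtracted mean enters these values. In dispersed myoblasts Tnnc1 changed by 1.86 and Myh7 by 0.72, while Myh4 changed by -1.45 and Tnnc2 by -1.19. Without the subtraction the changes of Tnnc1 and Myh7 there were 1.05 and -0.09. None of the 20 tests passed after adjustment, since the smallest p of 0.0286 (two-sided exact permutation test) gave an adjusted p of 0.0571. Of the 18 fiber genes themselves 8 were called lower and 2 higher in dispersed myoblasts, and in myofiber-associated myoblasts all 18 log2 changes were negative, with an unadjusted limma p below 0.05, and none was called, with a median of -2.0. Their part in the members' changes was not tested.

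Other genes of the fast program followed the fast members in part. Of 10 such partners 9 were tested. In dispersed myoblasts 4 fell, Mybpc2 (-2.28), the calcium-binding protein Pvalb (-2.02), the calcium store protein Casq1 (-2.01) and Myoz1 (-1.81), and the tropomyosin gene Tpm1 rose (1.2). Casq1 was well above background on 3 of the 4 arrays at 72 hr. In myofiber-associated myoblasts no partner passed in limma, with a median log2 change of -1.96 and 8 lower at an unadjusted p below 0.05. All 9 were higher in myofiber-associated than in dispersed myoblasts at both times, and among genes well above background on all arrays of both groups the myosin-binding protein Mybpc2 had a difference of 7.55 at 48 hr and 7.83 at 72 hr. The fast light chain Mylpf differed by 8.78 at 48 hr, but it was well above background on only 1 of the 4 dispersed arrays, so that the size of this value is uncertain.

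Of 12 partners of the slow program 10 were tested. In dispersed myoblasts 3 rose, Tnnt1 and Tnni1 as given above and the light chain Myl6b (0.73), and none fell. In myofiber-associated myoblasts none passed in limma, with 3 higher and 4 lower at an unadjusted p below 0.05, and the log2 change of Tnnt1 was 2.87 (SE 0.53, limma adjusted p = 0.0101). At 48 hr 6 were higher in myofiber-associated myoblasts and 1, Tpm3 (-0.77), was lower, and the same counts were found at 72 hr. The differences of Ankrd2 and Mybpc1 at 48 hr were 6.95 and 5.45. Those of Csrp3 (8.29) and Myoz2 (5.32) are less certain in size, since in dispersed myoblasts Csrp3 was well above background on 3 and Myoz2 on 2 of the 4 arrays. The slow members Myl2, Myl3, Myh7 and Tnnc1 are also heart genes, and of 8 cardiac genes only Nppa and Nppb passed the filter on low signal. Both rose in dispersed myoblasts, Nppa by 0.55 and Nppb by 2.84, against 7.38% of all genes called higher. Both passed above 0 in the CR comparison (0.90 and 4.14), against 1.1% of all genes. Myl2 and Myl3 passed there too, but their changes in dispersed myoblasts were negative (-1.63 and -1.46). Nppa was dim, with group means from 5.16 to 6.04. The part of cardiac genes in the members' results was not tested.

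Of 26 genes that regulate fiber type 24 were tested. In dispersed myoblasts 6 rose and 6 fell, with the largest changes in the myogenic factor Myog (3.92), the transcription factor Mef2c (-1.50), the repressor Prdm1 (-1.32) and the calcineurin target Nfatc2 (-0.93). In myofiber-associated myoblasts Nrip1 (-0.87) and Vgll2 (-0.59) fell. One regulator passed in the CR comparison, Myog (4.55). At 48 hr 15 were higher in myofiber-associated than in dispersed myoblasts and 2 were lower, with Myog (8.25), Nfatc2 (3.14), Rcan1 (3.11) and Mef2c (3.01) the largest, and at 72 hr 4 were higher and 2 lower, with Myog (3.70), Eya4 (1.84), Prdm1 (-1.26) and Nfatc4 (1.16) the largest. Over all genes the shares called higher and lower were 7.38% and 6.35% in dispersed myoblasts, 16.1% and 27.1% between the cultures at 48 hr, and 11.6% and 15.6% at 72 hr.

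Of 6 isoforms of developing muscle, the embryonic heavy chain Myh3, which lies in the same cluster as Myh1, Myh2 and Myh4, rose in both cultures. Its increase was 3.36 log2 units in dispersed myoblasts (limma adjusted p = 0.00214). On the myofiber-associated arrays Myh3 was not well above background on any of the 4 at 48 hr (mean 2.95) and had a mean of 9.68 at 72 hr, so that it was at least 106-fold higher (limma adjusted p = 0.00235). Here the dim group's level is, on each array, the higher of the probe's own signal and the lowest signal among probes well above background. The perinatal heavy chain Myh8 of the same cluster went the other way. It fell by 2.22 in dispersed myoblasts (limma adjusted p = 0.00709) and changed by -1.17 in myofiber-associated myoblasts without passing (limma adjusted p = 0.0704). Of the other 4, the light chain Myl4 rose in dispersed myoblasts (0.75, limma adjusted p = 0.00312), and none passed in myofiber-associated myoblasts. Across all 16 arrays the signals most like Tnnc2 among genes outside the list were those of Myh8 (Pearson r = 0.998), the fast light chain Myl1 (0.996) and Smpx (0.993). For Myh2 they were Zfp954, Mt1 and Oas1b (0.95 each), and for Myl2 they were Tor1aip1, Bmx (0.93 each) and 1700001L05Rik (0.93). For Tnnc1 they were a transcript of chromosome 16 with no gene symbol (0.93), Olfr700 (0.92) and Epm2aip1 (0.90). These are descriptions over 16 arrays that share 2 slides and fall into 4 groups, so that group differences enter each value.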

How the data were processed

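RNA of 16 preparations was hybridized to one-color Agilent arrays, and spot intensities were extracted by the authors with Feature Extraction 11.0.1.1. Deposited scanner files give the processed intensity (background-subtracted) of 59305 gene spots, or 55681 distinct probes. The authors also deposited a table of log2 values with 8 columns, one for each 72-hr array, relative to its culture's 48-hr arrays, with 1365 missing values. Following the study's methods, log2 intensities were normalized by loess (span 0.3, with 4 iterations), taking the average 48-hr profile of a culture as its reference, and then by quantiles over 16 arrays, after spots flagged as outliers were left out (none was a member's). Identical probes were averaged and the brightest probe per gene was kept. Genes with a median log2 signal of at least 5 were tested with limma 3.58.1 (R 4.3.3) on the 8 arrays of a comparison, or on 16 for the CR. Loess and quantile normalization hold array distributions equal, which compresses the brightest probes. The study's own permutation-based test was not run.

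Groups came from the labels. The members, gene lists and tests were chosen with earlier results of these data known. All members are named. Partners and regulators are named where they passed, at most 4 per list and comparison with the largest changes, and the 3 genes most like Myh2, Myl2, Tnnc1 and Tnnc2. A regulator to which this rule applies is not reported here. Genes named beyond this rule are markers of the lists. Endothelial, leukocyte, fibroblast, pericyte and Schwann cell lists were also measured: 6 of 6 endothelial genes were called lower in dispersed and 4 of 6 in myofiber-associated myoblasts at 72 hr, 2 of 4 leukocyte genes and 3 of 5 Schwann cell genes fell in dispersed myoblasts and none in myofiber-associated myoblasts, 3 of 6 pericyte genes fell in dispersed and 1 of 6 in myofiber-associated myoblasts, and of 6 fibroblast genes 1 rose in dispersed and 1 rose and 2 fell in myofiber-associated myoblasts. Replicates are separate preparations, and 4 per group limit the precision. Exact permutation tests are two-sided. The limma step was tested on simulated data with 200 changed genes. Sequences are from RefSeq (GRCm38.p6) or from the array design (mm9).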

Additional observations from a re-analysis of the deposited data

Results flagged for a closer look

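Tnnc2 on myofiber-associated replicate 9 at 48 hr stood apart from the other 3 arrays of its group, at 18.72 against 18.77. It was the only one of 40 sets of 4 arrays (10 members in 4 groups) with such a gap, where chance gives about 1 in 20. That rate does not apply to this set, whose values quantile normalization fixed by rank. Tnnc2 ranked 3 among all probes on replicate 9 and 2 on the other arrays of the group. Scaled to the 75th percentile, the values were 9.68, 9.72, 9.49 and 9.43, with replicate 9 between the others. The change from 48 to 72 hr differed between the cultures for Myl2 (log2 CR 2.51) and Myl3 (log2 CR 4.06), by the interaction test of limma.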

How the results depend on the processing

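With 1 array left out in turn, the number of members called in dispersed myoblasts was 2 to 4 (5 with all arrays) and the number past the CR test 0 to 3 (2 with all arrays). The change in Myh2 minus Myh7 then ranged from -2.32 to -1.71 in dispersed and from -4.61 to -3.30 in myofiber-associated myoblasts, and the exact p became 0.0571 without any 1 of the 48-hr arrays, for example -3.4 without the pooled replicate 10+11. The change of Tnnc1 ranged from -0.14 to 0.45 in myofiber-associated myoblasts, turning to -0.14 without replicate 10+11 and -0.015 without replicate 3 at 72 hr, and its difference between the cultures at 72 hr from -0.15 to 0.15. Without the filter on low signal, which tests more genes, 2 members were called in dispersed myoblasts and 0 for the CR. With 1 fit of all 16 arrays 3 were called in dispersed myoblasts, where the calls of Myh1 (adjusted p = 0.163), Tnni2 (0.0303) and Tnnc1 (0.0287) were lost and that of Myl2 (0.00567) was gained, and in myofiber-associated myoblasts Myh1 passed (0.0021). In the authors' table, where a test against 0 leaves out the spread of the 48-hr arrays, 9 members were called in dispersed myoblasts and 4 for the CR. Scaled to the 75th percentile, the Myh7 difference at 72 hr turned from -0.19 to 0.014, and neither value passed. Over the other alternatives 396 of 420 member changes kept their direction and their side of the threshold, and over the fits without 1 array 420 of 480. Over all genes the calls ranged from 995 (1 fit of all 16 arrays) to 3728 (the authors' table) in dispersed myoblasts, with 2778 as reported. They ranged from 230 (without replicate 7 at 48 hr) to 5767 (1 fit of all arrays) in myofiber-associated myoblasts (1114 as reported), from 293 (without dispersed replicate 6 at 72 hr) to 3802 (the authors' table) for the CR (702), and from 3295 (without dispersed replicate 7) to 6333 (1 fit of all arrays) between the cultures at 72 hr (5497). Left-out arrays were dropped after normalization. No paired analysis was possible because the groups compared share fewer than 2 replicate numbers. Signal over background limits Myl2 at 72 hr. It also bears on Myh2 in dispersed myoblasts at 72 hr, where 5.74% to 28.9% of the probes well above background were dimmer. The ceiling of quantile normalization limits Tnnc2, and also Tnni2, which ranked 3, 3, 2 and 8 among all probes on the myofiber-associated 48-hr arrays. The cause of these shifts was not tested where none is given.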
